A study of Mus musculus with 6 samples.

Results

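The variable segments of the mouse immunoglobulin heavy chain (Ighv genes) were followed in small intestinal RNA from 6 libraries. The members were the rows of the deposited count table whose symbol is Ighv followed by a number and whose 6 counts summed to 30 or more. This rule took 41 of the 76 Ighv rows, out of 33017 genes in the table, and these 41 held 116441 read counts, 99.9% of all Ighv counts. The 3 members just inside the threshold were Ighv1-49, Ighv1-56 and Ighv5-2, with summed counts of 36, 37 and 54. Just outside it were Ighv6-4 with 19 counts and Ighv1-62-3 and Ighv8-4 with 14 each. RefSeq's mouse table (GRCm38.p6) names 183 Ighv symbols, all on chromosome 12. It includes all 76 rows, and the other 107 symbols were not analysed here, so every share below is a share of the 41 members and not of the whole repertoire.

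Poly-A selected RNA came from frozen mouse small intestine, with 3 libraries labelled control (control 1 to 3) and 3 labelled model (model 1 to 3). The series title names simulated microgravity and radiation together with a compound, but none of the 6 libraries is labelled as having received it. The labels do not give the strain, age or sex of the mice, the section of intestine, the dose or length of exposure, or whether each library is a separate animal. The spread behind the p-values below may therefore be technical only. The question addressed was which heavy chain segments the intestinal antibody mRNA carried, and whether their levels or shares differed between model and control tissue.

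A heavy chain gene is assembled in each developing B cell by joining 1 variable, 1 diversity and 1 joining segment, which are transcribed together with a constant region. The variable segment encodes most of the antigen-binding domain, and segments are grouped by sequence into families, given by the number after Ighv. In the gut wall most antibody mRNA comes from plasma cells that secrete IgA, whose constant region is Igha. Plasma cells of 1 clone share 1 rearranged heavy chain, and somatic mutation alters the variable segment in activated B cells.

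The V exons of the segments on which the results turn are shown here, read from GENCODE M21 transcripts (build GRCm38, coding strand, 5′ to 3′). Each line starts at base 12 of the V exon, after the end of the leader peptide codons, and holds at most 300 bases. Capitals mark bases that differ from a named comparison segment. Ighv1-55 and Ighv1-64, the most used members, are marked against each other. Ighv9-2, the most used segment of control 2, is marked against Ighv9-3. Ighv11-2 and Ighv1-43 had the largest fold changes and are marked against Ighv11-1 and Ighv1-42. The V exon of Ighv1-71 has no capitals because it is the same as that of Ighv1-62-2, and it is shown to base 311 of 313.
Ighv1-55: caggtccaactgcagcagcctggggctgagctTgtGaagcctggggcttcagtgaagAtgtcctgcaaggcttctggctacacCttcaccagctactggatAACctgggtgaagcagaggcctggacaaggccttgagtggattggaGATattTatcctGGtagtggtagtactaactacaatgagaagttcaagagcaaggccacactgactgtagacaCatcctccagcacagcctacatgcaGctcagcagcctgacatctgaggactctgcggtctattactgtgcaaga
Ighv1-64: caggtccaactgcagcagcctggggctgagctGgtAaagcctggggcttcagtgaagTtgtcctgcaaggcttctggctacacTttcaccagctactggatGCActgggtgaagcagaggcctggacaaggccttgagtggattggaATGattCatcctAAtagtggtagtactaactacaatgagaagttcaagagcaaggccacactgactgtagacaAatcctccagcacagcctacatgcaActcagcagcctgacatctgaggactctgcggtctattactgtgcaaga
Ighv9-2: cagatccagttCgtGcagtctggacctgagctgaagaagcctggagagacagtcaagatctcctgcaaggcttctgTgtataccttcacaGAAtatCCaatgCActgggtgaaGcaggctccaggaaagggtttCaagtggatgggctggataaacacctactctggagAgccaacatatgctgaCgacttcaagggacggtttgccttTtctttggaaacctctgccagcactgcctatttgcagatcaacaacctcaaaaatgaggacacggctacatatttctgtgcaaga
Ighv11-2: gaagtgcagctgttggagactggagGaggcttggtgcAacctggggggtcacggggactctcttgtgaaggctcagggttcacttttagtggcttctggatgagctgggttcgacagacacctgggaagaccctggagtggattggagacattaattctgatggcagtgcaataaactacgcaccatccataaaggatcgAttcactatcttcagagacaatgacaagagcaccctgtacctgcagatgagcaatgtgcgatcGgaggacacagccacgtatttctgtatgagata
Ighv1-43: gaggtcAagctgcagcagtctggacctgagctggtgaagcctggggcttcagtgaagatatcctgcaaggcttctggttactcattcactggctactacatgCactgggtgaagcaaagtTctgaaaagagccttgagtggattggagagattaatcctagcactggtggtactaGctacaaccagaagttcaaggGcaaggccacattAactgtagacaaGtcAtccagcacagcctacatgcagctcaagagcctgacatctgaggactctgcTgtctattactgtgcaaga
Ighv1-71: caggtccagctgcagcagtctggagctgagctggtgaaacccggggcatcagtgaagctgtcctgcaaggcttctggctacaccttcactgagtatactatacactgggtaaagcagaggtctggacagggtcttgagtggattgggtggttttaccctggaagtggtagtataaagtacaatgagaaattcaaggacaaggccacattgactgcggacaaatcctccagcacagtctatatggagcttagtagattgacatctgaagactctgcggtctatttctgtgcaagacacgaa
Over the whole V exon Ighv1-55 and Ighv1-64 differed at 15 of 305 bases, Ighv9-2 and Ighv9-3 at 17, of which 15 are in the part shown, and Ighv1-43 and Ighv1-42 at 9. Ighv11-2 and Ighv11-1, the latter not among the rows of the table, differed at 4 of 307 bases.

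Near-identical sequences bear on how far the count of a segment can be trusted. V exons of all 41 members were found in the reference, with lengths between 304 and 317 bases. The closest other V exon was of the same family for all 41, with a median identity of 95.4% and a range from 81.0% to 100%. For 21 members that closest segment was not a row of the table. Of stretches of 100 bases along each V exon, all were found in no other Ighv V exon for 30 members. Ighv1-71 and Ighv1-62-2 had no such stretch, Ighv11-2 had 69.7%, Ighv1-84 had 79.1% and Ighv2-2 had 85.9%. Ighv1-55, a most used member, had 90.8%, and Ighv1-31 and Ighv1-43 had 95.1% each. Ighv1-77 had 96.6%, and Ighv1-53 and Ighv1-69 had 97.1% each. It is not known how reads that fit several segments were counted. The values of all these members with shared stretches are uncertain for that reason.

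The same few segments led in most libraries. Ighv1-55 took 9.28%, 6.48% and 13.7% of the Ighv counts in control 1 to 3 and 8.01%, 18.8% and 15.4% in model 1 to 3. Ighv1-64 took 9.58%, 6.74% and 12.5% in control and 14.0%, 10.2% and 15.3% in model tissue. For both segments control 2 had the smallest share, and the groups overlapped. Ighv1-55, Ighv1-64, Ighv1-76 and Ighv9-3 were among the 10 most used segments of all 6 libraries, and Ighv1-53 and Ighv9-2 were among them in 5. Ighv1-76 was the steadiest of these, with 7.55 ± 1.35% in control and 5.97 ± 0.664% in model libraries (mean ± SD, n = 3 each), a highest share 1.66 times the lowest. Ighv9-3 had 6.71 ± 1.09% and 6.01 ± 1.60%, and Ighv1-53 had 6.49 ± 3.39% and 6.66 ± 4.23%. Ighv1-74 and Ighv1-82 were smaller, at 3.01 ± 1.04% and 2.55 ± 1.34% in control and 3.93 ± 1.66% and 3.90 ± 1.48% in model tissue.

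**Figure D1:**
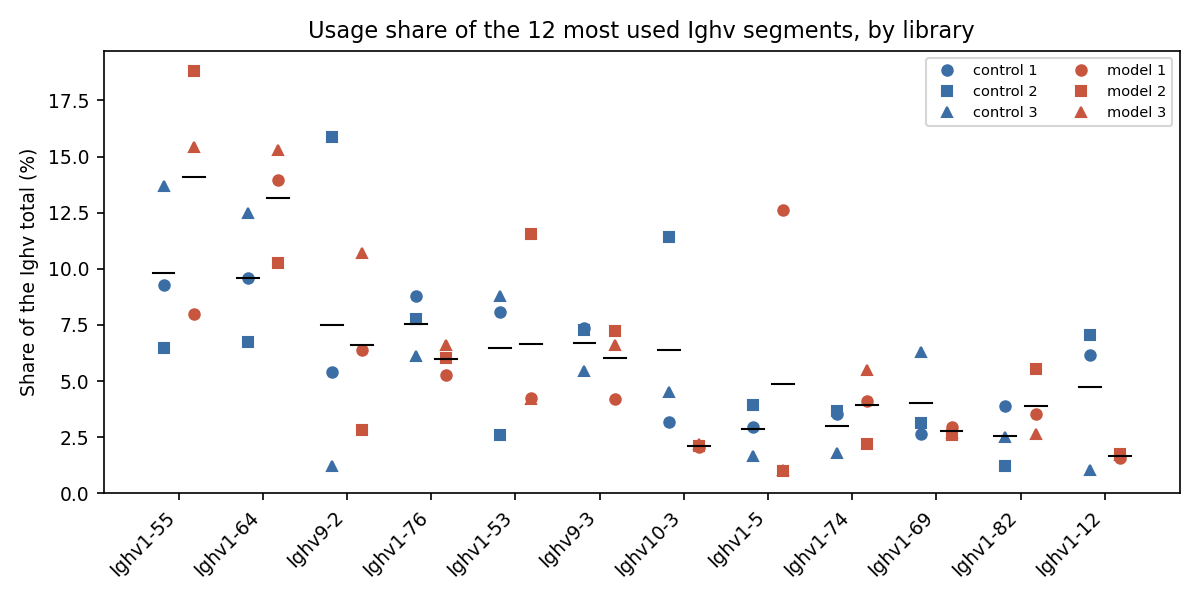
Share of the Ighv total in percent (vertical axis) for the 12 members with the highest mean share, each library as a point and the mean of each group as a line. Ighv1-55 and Ighv1-64 lead by their means, while Ighv9-2 in control 2 (15.9%) and Ighv1-5 in model 1 (12.6%) are the highest values of those segments.

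Single libraries stood out for particular segments. Ighv1-5 made up 12.6% of the Ighv counts in model 1, against 2.98%, 3.92% and 1.68% in control 1 to 3 and 0.989% and 1.06% in model 2 and 3. Ighv1-42 made up 9.14% in control 3, against 3.75% in model 1 and at most 1.22% elsewhere. Each of these was a high value of 1 library and not of a group. Ighv9-2 had 15.9% in control 2 and 10.7% in model 3, but 5.40% in control 1, 1.20% in control 3, 6.36% in model 1 and 2.80% in model 2. Ighv10-3 had 11.4% in control 2, and Ighv1-69 had 6.29% in control 3 against 2.62% to 3.14% in the other 5 libraries. Ighv1-12 was at 6.17% and 7.07% in control 1 and 2, and at 1.03% to 1.74% in control 3 and the model libraries. For scale, the widest 95% Wilson interval of any of the 246 shares reached 0.696 percentage points to either side. Such intervals cover counting error only and treat each read as an independent draw. Reads without molecular identifiers are not independent molecules, so the intervals may be too narrow and do not exclude sampling of few molecules.

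Across the 41 members, the highest share was a median of 6.41 times the lowest among the 6 libraries. All 6 libraries had counts for 39 members. The exceptions were Ighv5-2, with 0 of 10584 counts in control 2, which by 3 counts of the total allows a share of up to 0.0283%, and Ighv1-56, with 0 of 18470 counts in model 3, which allows up to 0.0162%. Between 19 and 24 segments made up at least 1% each of a library's Ighv counts. Ighv7-1 ranged from 0.0325% in model 3 to 2.14% in control 3, and Ighv3-5 from 0.0512% in control 3 to 2.71% in model 3. A segment that was rare in 1 library could thus be well represented in another.

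The effective number of segments, the inverse Simpson index of the shares, says how many equally used segments would give the same concentration. It was 17.8, 13.8 and 14.0 in control 1 to 3 and 15.7, 12.7 and 12.6 in model 1 to 3, or 15.2 ± 2.23 and 13.7 ± 1.75 as means with SD (n = 3). The groups overlapped, with control 2 and control 3 below model 1. The 5 most used segments together took 43.1% to 50.4% of the Ighv counts in the control libraries and 46.2% to 54.7% in the model libraries. The leading segment was Ighv1-64 in control 1 and model 1, Ighv9-2 in control 2, and Ighv1-55 in control 3, model 2 and model 3.

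Usage profiles overlapped to a similar degree between and within groups. The overlap of 2 libraries, the sum over segments of the smaller share, was 57.7% to 72.3% for the 3 pairs of control libraries and 69.4% to 75.0% for the 3 pairs of model libraries. For the 9 pairs of a control with a model library it was 59.3% to 75.7%. Pearson's r of the shares across the 41 segments ranged from 0.425 (control 2 with model 2) to 0.838 (control 3 with model 2). These values are descriptions across segments, which are not independent replicates and share the family structure of the locus. Control 2 had the lowest overlaps, with 57.7% against control 3 and 59.3% against model 2.

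The family Ighv1, the largest in the locus, took most of the counts. Its 23 members made up 63.2%, 50.9% and 70.2% of the Ighv counts in control 1 to 3 and 72.8%, 71.4% and 65.9% in model 1 to 3. Ighv9, with 4 members, followed at 14.0%, 23.7% and 7.42% in control and 11.1%, 12.1% and 21.0% in model tissue. Both families overlapped between the groups. The Ighv14 family did not overlap by share: its 3 members summed to 7.58%, 8.04% and 9.37% in control and 5.38%, 4.26% and 3.58% in model libraries. Within it the leading segment varied, with Ighv14-4 at 5.12% in control 1 and Ighv14-2 at 5.83% in control 3, and no Ighv14 segment was separated on its own. Ighv10 was also lower in each model library, at 4.36%, 12.4% and 6.12% in control and 3.97%, 3.12% and 3.58% in model tissue. The separation of Ighv10 was narrow, since control 1 and model 1 lay close together. Ighv11, represented by Ighv11-2 alone, was higher in each model library, with 0.709 ± 0.477% against 0.0712 ± 0.0598% (mean ± SD, n = 3). The families Ighv2, Ighv3, Ighv5 and Ighv7 each had means under 3.1% in both groups and overlapped. These family sums are descriptions and were not tested. Shares of 1 total depend on each other, so a lower share of 1 family goes with higher shares elsewhere. By level, the groups did not overlap for 11.1% of all single genes tested.

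**Figure D2:**
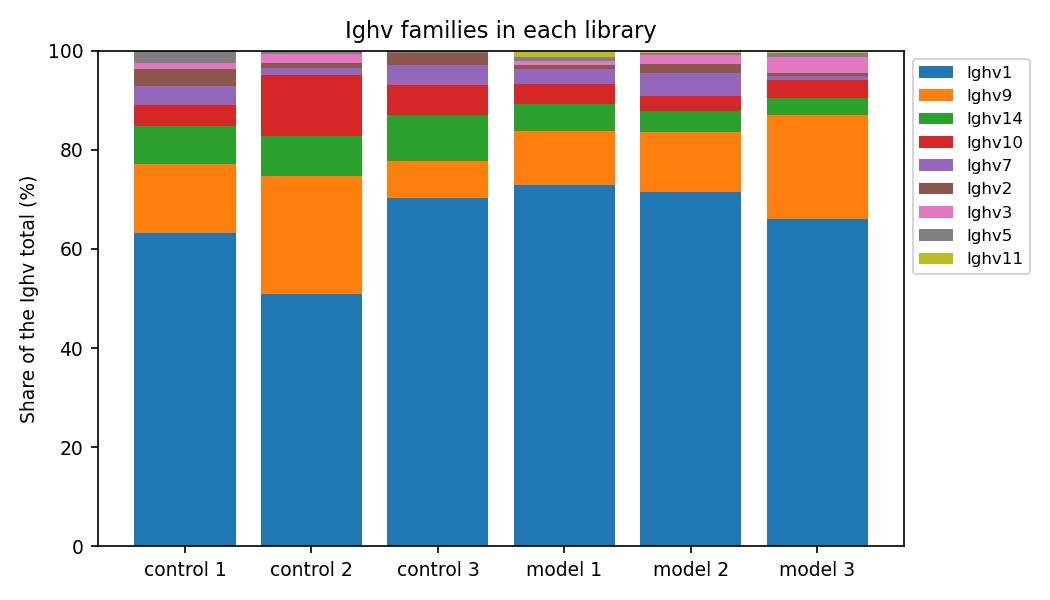
Stacked shares of the 9 Ighv families in the Ighv total (vertical axis, percent) for each of the 6 libraries. Ighv1 is the largest part of every bar, from 50.9% in control 2 to 72.8% in model 1, and the Ighv14 part is smaller in the model bars (3.58% to 5.38%) than in the control bars (7.58% to 9.37%).

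Position along the locus gave a similar picture to the families. In RefSeq's order (GRCm38.p6), the 91 Ighv symbols nearest the constant region genes included 20 members and the remaining 92 included 21, all of which belong to Ighv1. The 21 far members took 54.1%, 39.9% and 67.5% of the Ighv counts in control 1 to 3 and 58.6%, 68.7% and 63.2% in model 1 to 3. Control 2 was the only library in which the near members held more counts, with 60.1%, and the groups overlapped.

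No heavy chain segment was called different between model and control tissue. With edgeR's quasi-likelihood test across 15904 genes, 0 of 37 tested members had a Benjamini-Hochberg adjusted p under 0.05, as did 0% of all genes tested, and the smallest adjusted p was 0.851. The other 4 members, Ighv7-4, Ighv5-2, Ighv1-56 and Ighv1-49, did not reach the minimum level of 0.271 CPM in 3 libraries that the filter asks for. Of these, Ighv7-4 (19, 67 and 4 counts in control and 6, 11 and 2 in model tissue) reached it in 2 control and 0 model libraries, and Ighv1-49 in 1 and 0. At an unadjusted edgeR p under 0.05 there were 5 members, 4 higher and 1 lower in model tissue. The same held for 4.81% of all genes tested, 1.82% higher and 2.99% lower. The groups did not overlap for the same 5 members (13.5% of those tested), and for 11.1% of all genes, 4.73% higher and 6.33% lower. Of the 37, 22 had a log2 fold change above 0, with a median of 0.31, while 48.2% of all genes were above 0 with a median of -0.02. Ighv1-43 entered the test only through the 3 model libraries, whereas Ighv7-4 and Ighv1-49, low in model tissue, were left out, so that these counts over tested members cannot serve as evidence of a direction.

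**Figure D3:**
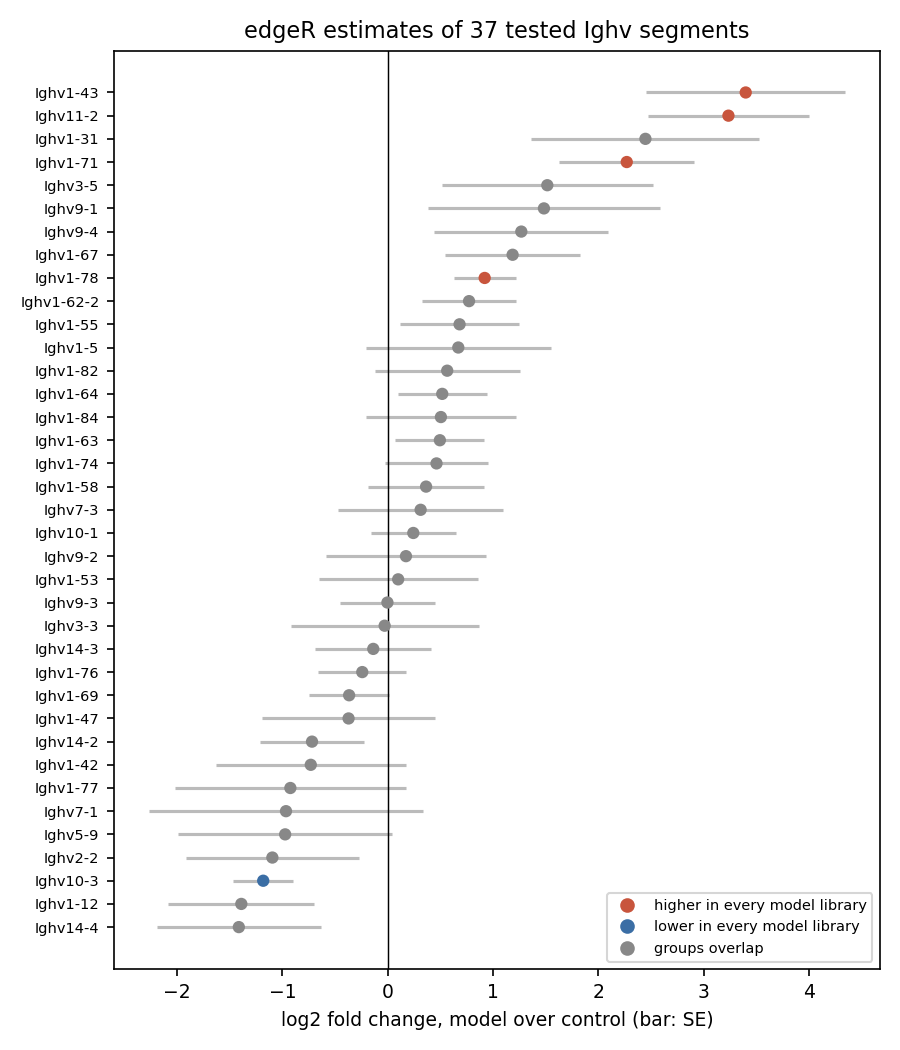
Log2 fold change of model over control (horizontal axis) with its standard error (bars) for the 37 tested members, from edgeR. Red points mark members higher in the 3 model libraries without overlap, the blue point the 1 that was lower, and grey points overlap. The estimates run from -1.41 for Ighv14-4 to 3.40 for Ighv1-43, and none passed the test.

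Ighv11-2, a segment known from B-1 cells whose natural antibodies bind phosphatidylcholine, had the smallest p of all members. It had 19, 2 and 24 counts in control 1 to 3 and 144, 110 and 81 counts in model 1 to 3. As CPM, the count scaled to an equal library total, these were 0.420, 0.0532 and 0.664 in control and 4.11, 2.52 and 2.24 in model tissue. The 3 model libraries all lay above the control libraries. The log2 fold change was 3.24 (SE 0.76), with an adjusted p = 0.851 by edgeR. An alternative test, DESeq2's Wald test, called Ighv11-2 with an adjusted p = 0.0095. It was the only member so called, and DESeq2 called 0.158% of all genes. The groups were also separate by its share of the Ighv counts, which was 0.0582%, 0.0189% and 0.136% in control (95% Wilson intervals 0.0372 to 0.0908%, 0.00518 to 0.0689% and 0.0917 to 0.203%). In model libraries it was 1.26%, 0.428% and 0.439% (intervals 1.07 to 1.48%, 0.355 to 0.516% and 0.353 to 0.545%), and these do not meet the control intervals. The shares come from the same counts, and the intervals cover counting error only, not the spread between libraries. The V exon shown above is 98.7% identical to that of Ighv11-1, so part of these counts could belong to either segment.

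Ighv1-43 had 1, 8 and 2 counts in control and 49, 34 and 18 counts in model libraries. Its log2 fold change was 3.40 (SE 0.94), from a control mean of 0.0940 CPM after TMM scaling. Ighv1-42, from which its V exon differs at 9 bases, went the other way in its estimate (log2 fold change -0.73, SE 0.90), with overlapping groups of 5.92, 2.85 and 44.5 CPM in control and 12.3, 6.92 and 6.25 CPM in model tissue. The high value of Ighv1-42 in control 3 was thus not accompanied by Ighv1-43, which had 2 counts there, and without that library the estimate for Ighv1-42 was 1.17.

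Ighv1-71 was at 2.05, 0.558 and 1.11 CPM in control, while the model libraries measured 3.91, 9.57 and 2.43 CPM, without overlap. The log2 fold change was 2.27 (SE 0.64). Ighv1-62-2, whose V exon has the same sequence, was at 2.10, 1.62 and 3.82 CPM in control and 1.83, 4.26 and 5.17 CPM in model tissue, with overlap and an estimate of 0.77 (SE 0.45). Reads that lie within the V exon cannot be assigned to either, so the sum is given as well. How such reads were counted is not known, and the sum may leave some of them out. Together they had 4.15, 2.18 and 4.92 CPM in control and 5.74, 13.8 and 7.60 CPM in model libraries, and the sum did not overlap. Their summed share was 0.575%, 0.775% and 1.01% in control and 1.76%, 2.35% and 1.49% in model tissue.

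Ighv1-78 was an abundant segment with separated groups, at 10.05, 6.65 and 10.5 CPM in control and 14.4, 10.8 and 19.0 CPM in the model libraries. Its estimate on the log2 scale was 0.92 (SE 0.30). The margin was small, since control 3 and model 2 were nearly equal, and as a share of the Ighv counts its groups overlapped. Ighv10-3 was lower in the model libraries without overlap, at 22.9, 32.1 and 22.0 CPM in control and 6.71, 12.4 and 11.2 CPM in model tissue. Its log2 fold change was -1.18 (SE 0.29), and its share was 6.37 ± 4.41% in control and 2.12 ± 0.0743% in model libraries (mean ± SD, n = 3). The model shares of Ighv10-3 were nearly equal, and the large control SD came from control 2. Ighv10-1, its closest relative at 96.8% identity of the V exon, was estimated at 0.24 (SE 0.41) on the log2 scale.

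**Figure D4:**
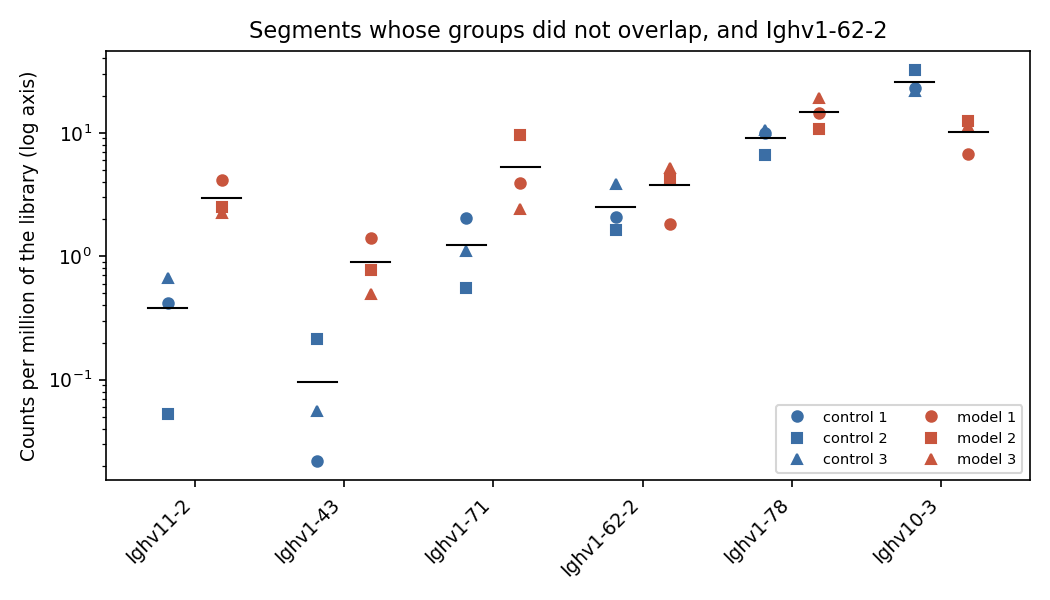
CPM (log axis) for the 5 tested members whose groups did not overlap and for Ighv1-62-2, by library, with group means as lines. Ighv11-2, Ighv1-43, Ighv1-71 and Ighv1-78 are higher and Ighv10-3 is lower in the 3 model libraries, whereas Ighv1-62-2 overlaps.

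By usage share, which sets aside how much antibody mRNA a library held, the groups were separate for 5 of the 41 members. Higher in model tissue were Ighv11-2, Ighv1-43 and Ighv1-71, and lower were Ighv10-3 and Ighv1-49. Ighv1-49 had only 19, 4 and 9 counts in control and 1, 1 and 2 counts in model libraries, and it is named because its groups were seen to separate. Among 89 kappa light chain variable segments taken by the same count rule, 13.5% had separate shares of the kappa total, a similar proportion. The most used segments had smaller estimates: the log2 ratio of model to control was 0.68 (SE 0.56) for Ighv1-55, 0.52 (SE 0.42) for Ighv1-64, 0.17 (SE 0.76) for Ighv9-2 and -0.24 (SE 0.42) for Ighv1-76, all with overlapping groups and none called. Single libraries set the sign for Ighv9-2, at -0.31 without control 3 and -0.48 without model 3, and for Ighv1-76, at 0.36 without control 1.

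The summed Ighv level was 721, 281 and 487 CPM in control 1 to 3 and 326, 588 and 510 CPM in model 1 to 3, or 496 ± 220 and 475 ± 135 CPM (mean ± SD, n = 3). The difference was smaller than the spread between libraries, with control 2 and model 1 lowest. In bulk tissue fewer plasma cells and less antibody mRNA per cell cannot be told apart. Relative to 100 counts of the heavy chain constant regions, the Ighv members had 8.38, 5.08 and 6.82 counts in control and 3.85, 6.94 and 8.04 counts in model tissue. The kappa variable segments had between 13.8 and 22.6 in control and between 13.5 and 20.6 in model tissue on the same base. Control 2 and model 1 were thus the lowest for both chains, although Igha itself was lowest in control 2 (5457 CPM) and nearly highest in model 1 (8389 CPM). Long transcripts were low against short ones in model 1 (difference of median log2 deviations -0.46) and slightly so in control 2 (-0.04), while the other 4 libraries lay between 0.02 and 0.35. The variable region lies at the 5′ end of the antibody mRNA, and the part of this length difference in the ratios was not tested.

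**Figure D5:**
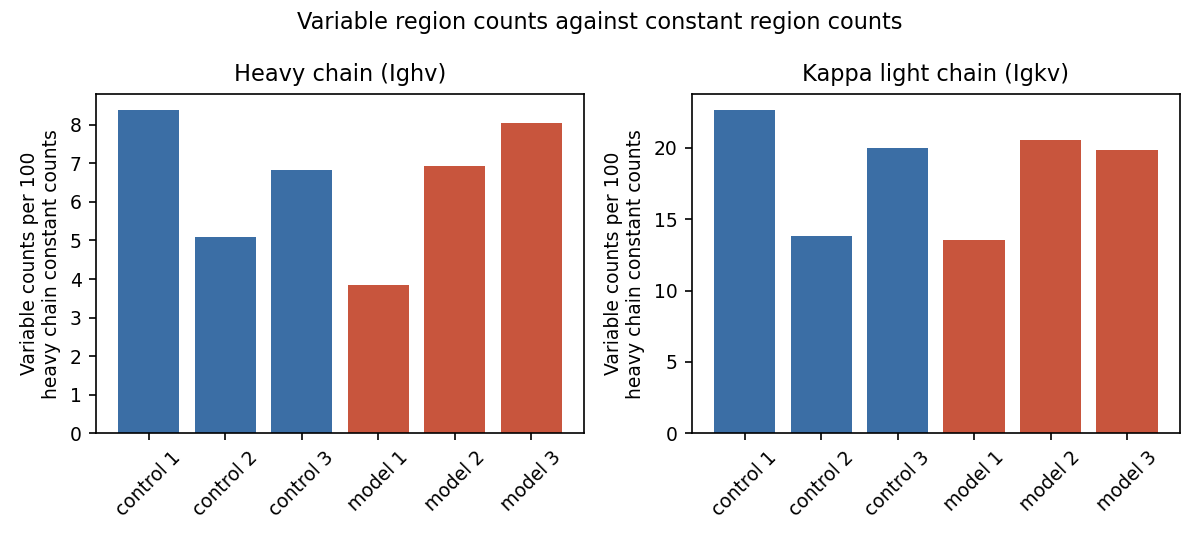
Variable region counts per 100 heavy chain constant region counts (vertical axes) for the heavy chain and the kappa light chain, by library, control in blue and model in red. Control 2 (5.08 and 13.8) and model 1 (3.85 and 13.5) have the lowest bars on both sides.

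The constant region counts show which antibody classes the libraries held, but do not tie a variable segment to a class. Ighg1 and Ighg2a were not among the rows, so shares are of the 7 constant genes in the table. Igha, the IgA constant region, made up 89.7% to 98.5% of the heavy chain constant counts in control and 94.0% to 99.0% in model libraries. It measured 8391, 5457 and 6399 CPM in control and 8389, 8240 and 5974 CPM in the model libraries, with an estimated log2 fold change of 0.37 (SE 0.36). Ighm and Ighd, the classes of naive B cells, together held 3.72% of the constant counts in control 3 and 2.32% in model 3, and at most 0.628% elsewhere. Of the other classes, Ighg2b reached 331 CPM in control 3 and 19.1 to 136 CPM elsewhere, and Ighg2c 120 CPM in control 3 and 19.0 to 86.1 CPM elsewhere. Ighg3 (log2 fold change 0.15, SE 0.52) and Ighe (-0.59, SE 1.11) were lower still in level. None of the 7 constant genes in the table passed edgeR's test, and their groups all overlapped.

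Markers of the cells that make antibody gave a similar account. Of 13 tested plasma cell genes 0 were called, 8 were estimated higher and 5 lower, and 0 had separate groups. The most abundant were Jchain, the joining chain of IgA and IgM (log2 fold change 0.26, SE 0.29), Txndc5, a disulfide isomerase (0.05, SE 0.27), and Xbp1, a transcription factor of secretory cells (0.33, SE 0.27). All 15 tested genes of mature and follicular B cells were estimated lower, 0 were called and 0 had separate groups. Of all genes tested, 48.2% were estimated higher. Genes of 1 list can vary together, so such counts are no evidence of a direction. The summed level of the B cell genes was 31.7 to 510 CPM in control and 26.4 to 265 CPM in model libraries, with control 3 and model 3 highest. The most abundant were Cd37, a tetraspanin, H2-Ob, a regulator of antigen loading, and Cd22, a brake on the B cell receptor, at 49.1, 56.2 and 51.8 CPM in control 3. In model 3 they were at 28.1, 29.7 and 27.7 CPM, with at most 10.9 CPM elsewhere. Markers of other cell types also set single libraries apart: exocrine pancreas genes summed to 6460 CPM in model 3 and to 5.95 to 23.3 CPM elsewhere. Of 9 tested T cell genes 0 were called and 8 were estimated higher, as were 48.2% of all genes tested. After TMM scaling 2 had groups without overlap, both higher in model tissue, as had 4.73% of all genes tested. These were Cd3d, a chain of the T cell receptor complex (log2 fold change 0.37, SE 0.24), and Lck, a T cell kinase (0.41, SE 0.17). Without that scaling both overlapped. Control 2 exceeded model 1 for Cd3d (8.16 against 7.51 CPM), and control 3 exceeded model 1 for Lck (27.5 against 24.4 CPM). Tested genes of macrophages (8), enterocytes (5) and follicles (7) had 0 calls and 0 with separate groups. The part of these differences in the usage shares was not tested. Without control 3 and model 3, a choice made after seeing the data, the log2 fold change was 3.99 (SE 0.94) for Ighv11-2 and -1.40 (SE 0.36) for Ighv10-3, and 0 members were called.

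Genes for recombination and for transcription of the segments were also examined. Rag1 and Rag2, the recombinase genes, were listed at 0 in all 6 libraries. So were genes that this tissue uses, among them Igkc, the kappa constant region, Mzb1, a plasma cell gene, Ms4a1, which encodes the B cell antigen CD20, and Fabp2, an enterocyte fatty acid binding protein. An exact 0 in all 6 libraries of this table therefore says only that a gene is listed at 0, and not that it was not expressed. Of the list of recombination genes, none could be tested. Of the 3 octamer factor genes, which act at antibody promoters, 0 were called, and Pou2af1, the B cell coactivator, was estimated at 0.23 (SE 0.58). The germinal centre and switching list had 0 of 7 tested genes called, with Bcl6, a repressor of germinal centre B cells, at 0.55 (SE 0.33). Pigr, the receptor that carries IgA across the epithelium, was estimated at 0.17 (SE 0.41).

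The rows that did not become members were mostly pseudogenes. Of the 27 Ighv rows listed at 0 in all 6 libraries, which for the reason given above cannot be read as unused, RefSeq lists 19 as pseudogenes and 8 as segments, and the other 8 rows below the threshold comprise 2 pseudogenes and 6 segments. Of the 41 members, 39 are listed as segments. Ighv7-1 and Ighv7-3 are listed as pseudogenes in that table, yet Ighv7-3 had 2586 counts over the 6 libraries and 1.73 ± 0.967% and 2.28 ± 1.31% of the Ighv counts in control and model tissue (mean ± SD, n = 3).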

How the data were processed

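Counts of reads per gene symbol, not normalized, are what the authors deposited, in 1 table. FastQC, Trimmomatic, STAR, featureCounts and build GRCm39 are named in the submitters' processing notes, without versions. No source used here gives the annotation, the strand setting or the treatment of multi-mapping reads. The 6 columns were matched to samples by library name, and 0 were left over. Library totals were 35007515 to 45285564 counts, with 10584 to 32671 Ighv counts.

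Usage shares are percentages of the members' summed counts. Model was compared with control by edgeR 4.0.16 (R 4.3.3): filterByExpr (15904 of 33017 genes), TMM, robust quasi-likelihood F test, group as the only term, Benjamini-Hochberg over all genes. The SE is the absolute log2 fold change over the square root of F. Data for this comparison (15904 genes) were simulated with the same dispersion for every gene. Of 99 tested genes with an absolute log2 fold change of 2, 70 were recovered, and of 95 with 4, 95. There were 5 false calls. The spread of single Ighv segments between libraries was not simulated, so these rates do not give the power for them. Sums and indices over members got no p, and an exact permutation test of 3 against 3 libraries cannot go below 0.1. V exons came from GENCODE M21 (GRCm38) and were aligned with Biopython 1.88 where lengths differed. No coordinates are printed because that build differs from the files'.

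Named were the 12 members with the highest mean share, the most used of each library, the 6 with the largest difference between their highest and next highest library and the 5 with the smallest p. All constant genes and the 3 most abundant of the plasma cell and of the B cell list were named too. Of the T cell list, Cd3d and Lck were named because their groups separated after TMM scaling. Genes of the other lists were named in part or not at all. Other segments and genes were named after their values were seen. The members and lists were chosen with earlier results of these data known. The alternatives tried were RLE, upper quartile and library size scaling, DESeq2 1.42.0, limma-voom (limma 3.58.1), other count filters, a non-robust dispersion, a replicate block, other member thresholds and each library left out. Over genes with at least 20 counts in a pair, chi-square values per degree of freedom between libraries of 1 group were 122.7 to 526.8, far over sampling noise, so all were kept as separate samples.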

Additional observations from a re-analysis of the deposited data

How the results depend on the processing

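With DESeq2 the count of called genes was 25 in place of 0 and that of Ighv segments 1 (Ighv11-2) in place of 0; under the other alternatives both stayed at 0, including each library left out. The difference in the effective number of segments, model minus control, was -1.51 and became 1.01 without the segments most used in each library, and ranged from -2.52 to -0.23 with 1 library left out; the cause was not tested. Of single segments, 8 of the 17 named turned their sign under some alternative, none of them called. Ighv9-3 (a reported log2 estimate slightly below 0) was 0.024 with RLE scaling and with DESeq2 and 0.029 with limma-voom; Ighv1-53 was -0.070 with library size alone and Ighv1-5 was -0.10 with limma-voom. Without control 3 and model 3, chosen after seeing the data, Ighv9-2 was -0.98, Ighv1-74 -0.25, Ighv1-69 0.0039 and Ighv1-42 1.35, and as a ratio of mean usage shares, also added, Ighv9-2 was -0.18. With 1 library left out, the ranges were -0.48 to 0.36 for Ighv1-76, -0.28 to 0.53 for Ighv9-3, -0.76 to 0.69 for Ighv1-53, -0.48 to 0.65 for Ighv9-2, -0.67 to 0.049 for Ighv1-69, -1.23 to 1.17 for Ighv1-42 and -1.18 to 1.18 for Ighv1-5. Ighv11-2 stayed between 2.77 and 3.99, Ighv1-43 between 2.78 and 4.77 and Ighv10-3 between -1.58 and -0.91 under every alternative run for them. Ighv11-2 and Ighv1-43 did not pass the filter of at least 5 CPM in at least 3 libraries and have no estimate there. All these refits use the same counts, so a stable estimate is not further evidence. Scaling by library size alone moved the median of all genes from -0.02 to -0.21. The labels number replicates 1 to 3 in both groups, but deviations of libraries with the same number correlated at -0.15, -0.27 and 0.31, so the numbers were not taken to pair them. With the replicate block, 0 genes and 0 segments were called, and Ighv9-3 was 0.054 and Ighv1-42 0.18. Library totals leave the segments under about 100 summed counts (Ighv5-2, Ighv1-56 and Ighv1-49) with few counts.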
